A study of Phalaenopsis x intermedia with 4 samples.

Results

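A total of 951 SNPs were heterozygous in P. equestris (Pe) and homozygous in P. aphrodite (Pa). They were selected on measured calls. A SNP was a member when it had exactly 2 base alleles, lay on chromosome 1 or on chromosomes 3 to 19, was missing (N) in at most 20% of the 92 plant columns, had a heterozygous letter in the Pe column and a homozygous letter in the Pa column. Of the 99715 SNPs with 2 base alleles on these chromosomes, 4088 met the limit on N, and the members made up 23.3% of these. The SNPs heterozygous only in Pa numbered 630 by the same rule.

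The plants were 90 F1 progeny of P. Intermedia, which crosses Pe with Pa, and both parents, each with 1 column of calls. Leaf DNA was cut with Hinp1I or ApeK1 together with HaeIII, and short fragment ends were sequenced in 4 multiplexed libraries (genotyping by sequencing, GBS). The deposited table merges the libraries, so each plant has 1 letter per SNP and the enzyme pair, plate and read depth behind a letter are unknown. Its label says that it was imputed by nearest neighbors, and which letters were imputed is unknown. A call here may therefore be an imputed letter. The labels give neither the age of the plants nor a treatment, and each parental letter has no replicate.

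A SNP of this kind reads the meiosis of a single parent. Pa can pass on only its own allele, so every gamete from Pa is alike, and Pe passes on its Pe-only allele in one gamete class and the shared allele in the other. Progeny are therefore predicted to be homozygous for the Pa allele or heterozygous in a 1:1 ratio, which is the pseudo-testcross used for mapping in outcrossing plants. Progeny homozygous for the Pe-only allele are not allowed by the parental letters. When SNPs lie close together on a chromosome of Pe, their alleles travel together, and crossovers in Pe separate them with distance. SNPs heterozygous only in Pa report a separate meiosis in the other parent.

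The members were spread over 18 chromosomes. Chromosome 1 had the most, with 242, followed by chromosome 5 with 150, chromosome 3 with 80, chromosome 8 with 67 and chromosome 14 with 49. Chromosome 19 had a single member, S19_2088062, at which 57 progeny were homozygous for the Pa allele, 14 were heterozygous and 1 was homozygous for the Pe-only allele. The share of members among widely called SNPs was between 16.7% on chromosome 9 and 32.9% on chromosome 11. Names of SNPs give the chromosome and the position in bp on the submitters' reference. No source used here names its build, and no gene annotation was used. Changes between A and G or between C and T made up 58.9% of the members and 60.3% of the SNPs heterozygous only in Pa. The most frequent kind was G in Pa with A only in Pe, at 176 members, and the next was C in Pa with T only in Pe, at 164 members.

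Many members stood next to each other. Of the 951 members, 537 had another member within 100 bp, and 561 remained when 1 member per 5 kb was kept. Among 317 neighboring pairs within 100 bp, the same progeny carried the Pe-only allele at both SNPs in 192 pairs, and exactly the opposite progeny did in 2 pairs. Counting either phase, 212 of the 317 pairs (66.9%) agreed in at least 95% of plants. The lowest agreement was 50.7%. Neighboring members therefore shared most of their calls, but in the other pairs this close the allele was called in partly different plants.

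The 90 progeny gave 77870 calls at the members, and a further 7720 were missing. Of the calls, 46152 (59.3%) were homozygous for the Pa allele, 17292 (22.2%) were heterozygous and 14426 (18.5%) were homozygous for the Pe-only allele, the class that the parents do not allow. At the SNPs heterozygous only in Pa, the corresponding shares were 59.7%, 23.9% and 16.4%. The median member had 48 progeny homozygous for the Pa allele (range 7 to 82), 16 heterozygous (range 0 to 69) and 10 in the disallowed class (range 0 to 61). The members did not fall into separate kinds but ran from one extreme to the other. At 25 members no disallowed call was found, and at 152 members no progeny was heterozygous. Disallowed calls outnumbered heterozygous calls at 393 members (41.3%).

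Single members show part of this range. S1_224231866 had 43 progeny homozygous for the Pa allele, 47 heterozygous and 0 in the disallowed class, and S15_20555643 had the same 43, 47 and 0. At S1_238607164 the count of heterozygotes was 0, with 49 progeny homozygous for the Pa allele and 41 homozygous for the Pe-only allele. In each case nearly equal numbers of plants had and lacked the Pe-only allele. The SNPs differed in whether the letter of plants with it was heterozygous or homozygous, and why was not tested. Other members without heterozygotes were uneven. S3_57179358 had 82 progeny homozygous for the Pa allele and 8 disallowed, and S13_22810826 had 21 and 55. For 0 of 90 calls the exact 95% interval reaches 4.02%. All intervals given here cover counting error only.

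The mix of classes moved with the number of missing calls. The 112 members with no N in any of the 92 columns had 54.3% of calls homozygous for the Pa allele, 38.9% heterozygous and 6.84% disallowed. In members with N in 10 to 18 columns (404 SNPs), these shares were 63.8%, 12.8% and 23.4%. Between them, the heterozygous share was 30.5% with N in 1 to 3 columns and 21.6% with N in 4 to 9 columns, whereas the disallowed share was 14.9% and 19.7%. Among plants that had the Pe-only allele, 85.0% were called heterozygous at members with no N and 35.3% at members with N in 10 to 18 columns. The number of N belongs to the rule, and its part in the results below was not tested. Members just inside the limit, with N in 18 columns (59 SNPs), had a median of 50 progeny homozygous for the Pa allele, 6 heterozygous and 13 disallowed. The 36 SNPs just outside, with N in 19 columns, had medians of 48, 3 and 14.

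**Figure D1:**
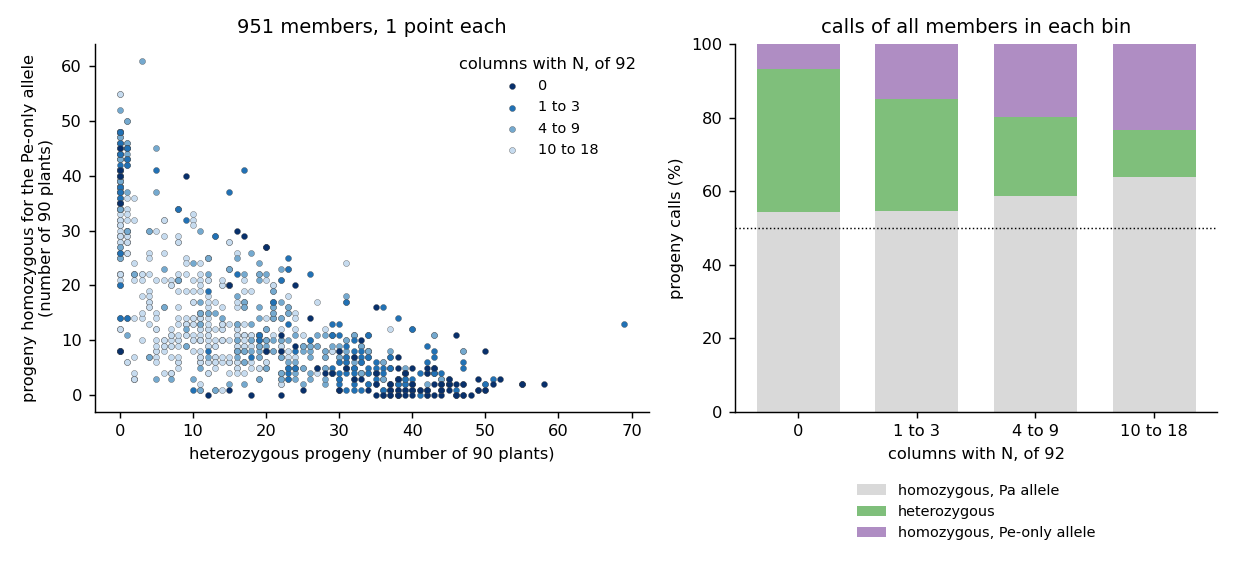
Left, the number of heterozygous progeny (x axis) and of progeny homozygous for the Pe-only allele (y axis) at each of the 951 members, shaded by the number of the 92 columns with N; right, the share of all progeny calls in the 3 classes (%) in each bin of N, with a dotted line at 50%. Members without N lie mostly at the lower right, and the heterozygous share is 38.9% without N and 12.8% with N in 10 to 18 columns.

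The first question was whether the members segregated 1:1. The 2 allowed classes were compared by an exact two-sided binomial test, with Benjamini-Hochberg adjustment over all 24489 SNPs of the table that had 1 heterozygous and 1 homozygous parent and at least 20 progeny in the allowed classes. Of the 951 members, 683 (71.8%) had an excess of homozygotes and 5 (0.526%) had an excess of heterozygotes at an adjusted p under 0.05. Over all SNPs tested, an excess of homozygotes was called at 38.1% and an excess of heterozygotes at 14.1%. At the widely called SNPs heterozygous only in Pa these shares were 69.0% and 1.75%, close to those of the members. The median share of heterozygotes among allowed calls was 24.6% at the members (range 0% to 90.8%) and 25.8% at the SNPs heterozygous only in Pa.

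Plants in the disallowed class hold the Pe-only allele, so the same test was also run on plants without against plants with that allele. Then 333 members (35.0%) had an excess of plants without it and 16 (1.68%) had an excess of plants with it, against 18.8% and 25.0% of all 25068 SNPs tested in this way. The number of members departing from 1:1 was thus 688 on the allowed classes and 349 when disallowed calls were counted as carriers. On the allowed classes, the share departing was lowest at fully called members. With no N, 37 of 112 members departed on the allowed classes and 22 of 112 (19.6%) with disallowed calls counted as carriers. With N in 1 to 3 columns, 76 of 181 and 29 of 181 (16.0%) departed, so the latter share was lower there. With N in 10 to 18 columns, 378 and 213 of 404 members departed. Most members without N were therefore not distinguishable from 1:1 with 90 plants.

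Among members with more heterozygotes than homozygotes, S3_4505407 was the most extreme. Here 69 progeny were heterozygous, 7 were homozygous for the Pa allele and 13 were in the disallowed class (heterozygotes 90.8% of allowed calls, exact 95% interval 81.9% to 96.2%; exact binomial test, adjusted p = 3.34e-12). Thus 92.1% of its called progeny had the Pe-only allele. The adjacent member S3_4505409 went the other way, with 29 heterozygous, 56 homozygous and 4 disallowed progeny (adjusted p = 0.0105 for an excess of homozygotes, exact binomial test). The only further member within 1 Mb had the allele in 45.2% of progeny, with an r2 of 0.0557 to S3_4505407. S16_12167153 had 58 heterozygous, 30 homozygous and 2 disallowed progeny (adjusted p = 0.00886 by the exact binomial test). Nearby S16_12167047, S16_12167051 and S16_12167061 each had 55, 33 and 2 (adjusted p = 0.0475, exact binomial test), and these 4 with S3_4505407 were all of the 5 members called for an excess of heterozygotes. At S16_12483914, 54 progeny had the Pe-only allele and 32 lacked it (adjusted p = 0.0522, exact binomial test of plants with against without the allele). The highest r2 between S16_12167153 and a member within 1 Mb was 0.815. In the same 1 kb, S16_12167357 had 40 homozygous, 33 heterozygous and 9 disallowed progeny.

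The next members in this order did not pass the threshold on the allowed classes. S4_56090160 had 50 heterozygous, 32 homozygous and 8 disallowed progeny (adjusted p = 0.103, exact binomial test). S11_21417229 had 47, 30 and 8 (adjusted p = 0.114, exact binomial test), and S1_107696286 had 52, 35 and 3 (adjusted p = 0.141, exact binomial test). With disallowed calls counted as carriers, S4_56090160 and S11_21417229 did depart, with 58 of 90 and 55 of 85 progeny having the Pe-only allele (adjusted p = 0.0207 and 0.0224, exact binomial tests), and S1_107696286 did not (adjusted p = 0.093, exact binomial test).

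The opposite extreme was formed by members at which the Pe-only allele was rare and never heterozygous. S3_57179358 had 0 heterozygous, 82 homozygous and 8 disallowed progeny, and S11_21748915 had 0, 81 and 8 (exact binomial test, adjusted p = 1.84e-21 for both). S9_16214981 had 0, 78 and 8, S12_25065709 had 0, 73 and 14, and S1_209772793 had 0, 68 and 20 (the highest adjusted p of these 3 was 6.38e-18 by the exact binomial test). Members around these SNPs mostly had more even classes. Within 1 Mb of S3_57179358, 3 members had the Pe-only allele in 38.6% to 47.6% of progeny, against 8.89% at S3_57179358 itself, and the highest r2 was 0.0847. Around S12_25065709, with 16.1% of progeny having the allele, 3 members had it in 35.2% to 51.7%, and the highest r2 was 0.0455. Around S11_21748915, with 8.99% of progeny having the allele, 7 members had it in 8.22% to 64.7%. The authors filtered SNPs at a minor allele frequency of 0.05, so rarer Pe-only alleles are outside the table.

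The disallowed class reached its highest shares at S13_22810826 and S13_22810857. Each had 55 disallowed, 21 homozygous and 0 heterozygous progeny (72.4%, exact 95% interval 60.9% to 82.0%). At S1_227809440 there were 61 disallowed, 21 homozygous and 3 heterozygous progeny (71.8%). At these members 72.4% to 75.3% of progeny had the Pe-only allele, above the share lacking it in the test of plants with against without the allele (exact binomial test, adjusted p = 0.000467 for both SNPs on chromosome 13 and 1.77e-05 for S1_227809440). The single other member within 1 Mb of each had the allele in 27.6% of progeny on chromosome 13 and in 50.6% on chromosome 1.

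The second question was whether the classes differed between chromosomes. For each plant, the share at members of a chromosome was set against the share at members of all other chromosomes, and the difference was tested over plants with a two-sided permutation test that flips signs (100000 resamples, at least 5 calls per plant, Benjamini-Hochberg over the 17 chromosomes that allowed it). The smallest p that this test can give is 1e-05. Plants are its replicates, so its p does not measure the spread between members of a chromosome. The heterozygote share of allowed calls differed for 11 of 17 chromosomes, 5 of them higher and 6 lower. Chromosome 16 was highest at 34.1% ± 11.2 (SD over 90 plants) against 26.6% ± 5.20 elsewhere, with 68 of 90 plants higher there (permutation test, adjusted p = 4.25e-05). Chromosome 12 followed at 32.4% ± 9.34 against 26.7% ± 5.11, higher in 69 of 90 plants, with the same adjusted p. Chromosome 13 was lowest at 18.8% ± 15.3 against 27.5% ± 5.52 over 61 plants, but rested on 8 members. Chromosome 18 had 20.4% ± 12.04 against 27.1% ± 5.11, and only 22 of 90 plants were higher there. Over all members the heterozygote share of allowed calls also moved with N, at 41.7% with no N and 16.7% with N in 10 to 18 columns. The median number of columns with N per member was 4 on chromosome 12, 8 on chromosome 16 and 14 on chromosomes 13 and 18.

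The disallowed share varied more. It differed from the rest for 14 of 17 chromosomes by the same permutation test, 7 higher and 7 lower. The test does not measure the spread between members, whose disallowed share ran from 0% to 72.4%. Chromosome 18 had 29.3% ± 10.9 against 18.3% ± 2.25 elsewhere, and 80 of 90 plants were higher there (permutation test, adjusted p = 2.43e-05). Chromosome 13 had 27.8% ± 16.1 against 18.4% ± 2.29 and chromosome 17 had 25.5% ± 16.2 against 18.4% ± 2.23. The lowest shares were on chromosome 11, with 12.1% ± 7.95 against 18.8% ± 2.30, and on chromosome 9, with 12.3% ± 9.57 against 18.7% ± 2.26. The median number of columns with N per member was 14 on chromosomes 13 and 18, 9 on chromosomes 9 and 17 and 6 on chromosome 11.

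The share of progeny homozygous for the Pa allele was more even. Over all members it also moved with N, at 63.8% with N in 10 to 18 columns and 54.3% with no N. It differed for 5 of 17 chromosomes. Chromosome 9 had 65.8% ± 10.2 against 59.2% ± 3.49 elsewhere, higher in 67 of 90 plants, and chromosome 15 had 63.4% ± 8.73 against 59.2% ± 3.47, higher in 59 of 90 plants (permutation test, adjusted p = 8.5e-05 for both). The lower ones were chromosome 16 at 55.5% ± 10.2 (adjusted p = 0.00272), chromosome 10 at 55.2% ± 12.8 (adjusted p = 0.00807) and chromosome 18 at 56.1% ± 11.1 (adjusted p = 0.0141), all by the same permutation test. Chromosome 16 therefore had a lower share homozygous for the Pa allele and a higher heterozygote share than the rest. Both measures count the plants homozygous for the Pa allele, so they are not independent. It also held 4 of the 5 members called for an excess of heterozygotes. These lay within 1 kb of each other and enter both shares, so they are not separate evidence.

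**Figure D2:**
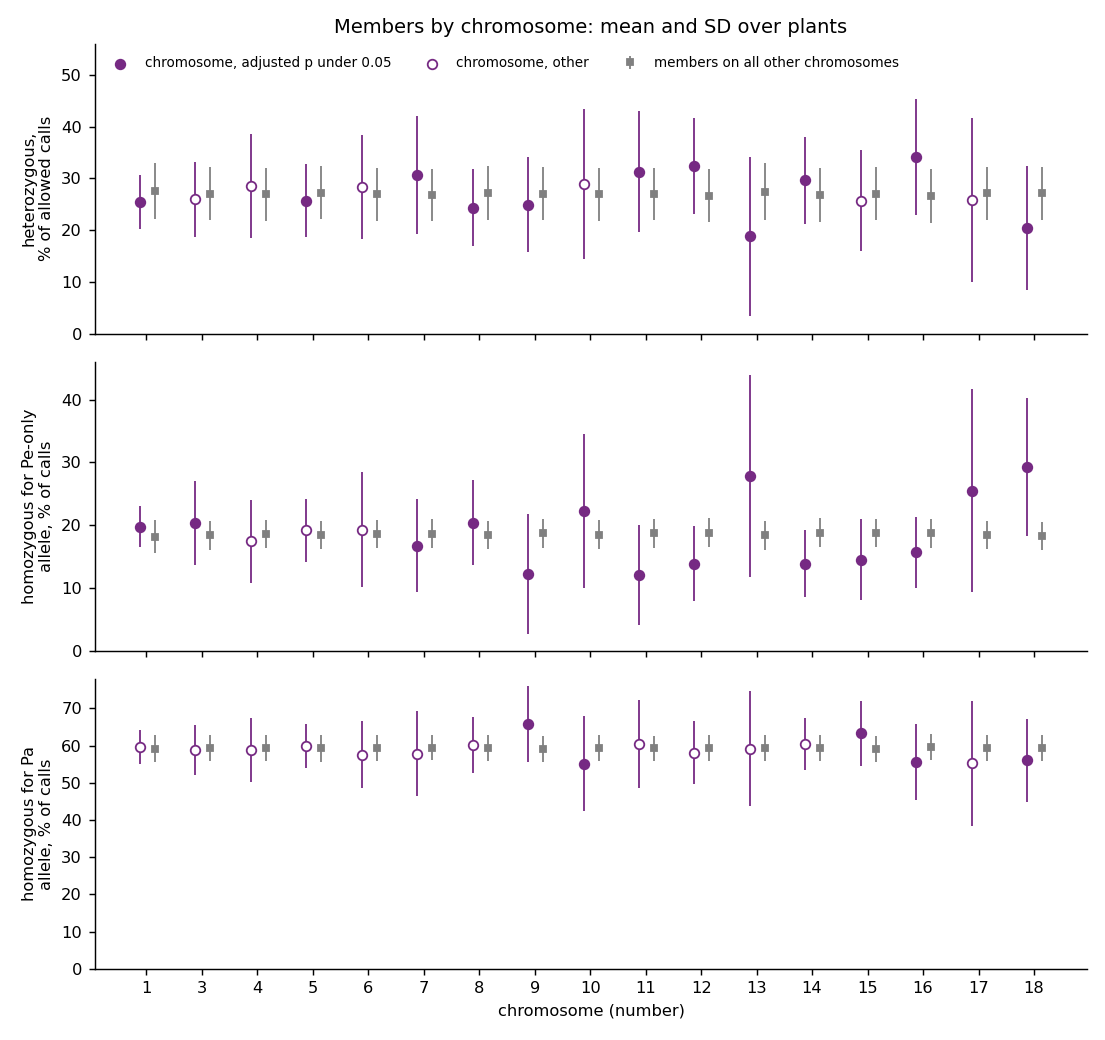
Mean over plants of 3 shares (%) at members of each chromosome (circles) and at members of all other chromosomes (squares), with SD over plants as bars; filled circles have an adjusted p under 0.05 in the permutation test. The disallowed share spans 12.1% on chromosome 11 to 29.3% on chromosome 18, while the share homozygous for the Pa allele stays between 55.2% and 65.8%.

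Every plant had disallowed calls. Over the 90 progeny the share homozygous for the Pa allele was 59.4% ± 3.46 (SD), the heterozygous share 22.04% ± 4.56 and the disallowed share 18.6% ± 2.24. Among the plants with the most disallowed calls were PaPe74 (24.9%) and PaPe11 (22.7%), and the share was lowest in PaPe18 (12.1%), PaPe8 (13.6%) and PaPe57 (14.5%). PaPe18 also had a heterozygous share of 37.8%, against 13.7% in PaPe74. Over the whole table, 30 progeny were sparsely called, with a median of 93.3% of calls missing, and 60 were well called, with a median of 2.40% missing. At the members the medians were 15.5% and 3.05% missing. The disallowed share was 18.1% ± 2.23 in the 30 sparsely called plants and 18.8% ± 2.22 in the 60 well-called plants. Without 8 progeny that lay apart in a multidimensional scaling of the whole table, 18.5% of calls were disallowed and 679 members departed from 1:1. Leaving out PaPe76 and PaPe89, near-identical to other progeny, gave 692.

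Members had more disallowed calls than the SNPs heterozygous only in Pa. Per plant, the disallowed share was 18.6% ± 2.24 at the members and 16.6% ± 2.29 at the SNPs heterozygous only in Pa, higher at the members in 72 of 90 plants (mean difference 2.04 percentage points, two-sided permutation test, p = 1e-05, the smallest it can give). The difference was 2.49 points in the 60 well-called plants and 1.12 points in the 30 sparsely called plants (permutation tests, p = 1e-05 and p = 0.0172). The share homozygous for the allele of the homozygous parent was 59.4% ± 3.46 at the members and 59.7% ± 4.09 at the SNPs heterozygous only in Pa, a difference smaller than the spread between plants (permutation test, p = 0.286). It differed in direction between the subsets, being lower at the members by a mean of -0.97 points in the 60 well-called plants (19 of 60 plants higher, permutation test, p = 0.0167) and higher by 0.897 points in the 30 sparsely called plants (18 of 30 plants higher, permutation test, p = 0.089). These tests were chosen after the calls had been seen, and they do not measure the spread between SNPs.

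**Figure D3:**
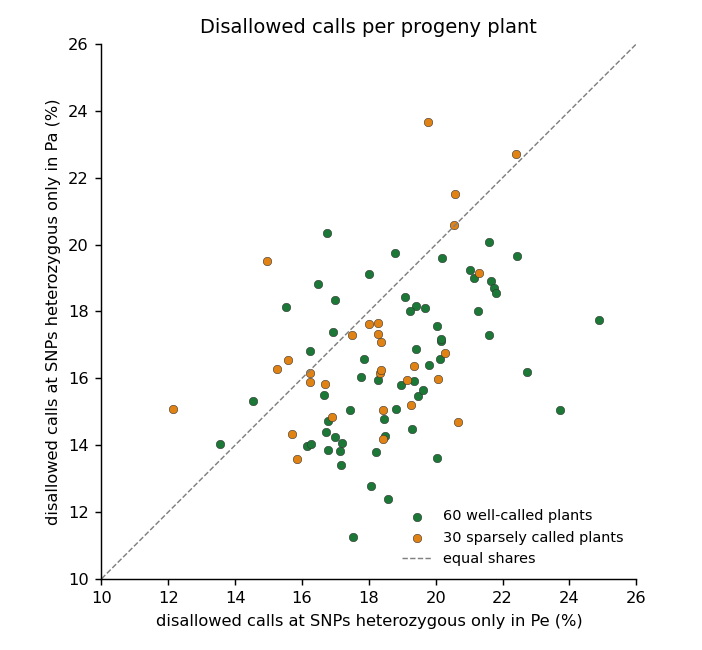
Share of progeny calls in the disallowed class (%) at SNPs heterozygous only in Pe (x axis) and at SNPs heterozygous only in Pa (y axis), 1 point per progeny plant, with the line of equal shares. In 72 of the 90 plants the share was higher at the SNPs heterozygous only in Pe.

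The third question was whether the members map the meiosis of Pe. For pairs of the 561 members left at 1 per 5 kb, the fraction of recombinant plants was counted in the phase with fewer recombinants. A pair was called linked at a LOD score over 4, the threshold of the study's mapping methods, with at least 40 progeny in the allowed classes at both SNPs. Of 11539 pairs on the same chromosome 1076 (9.32%) were linked, against 3548 of 86794 pairs (4.09%) on different chromosomes. When plants with the Pe-only allele were set against plants without it, 971 of 18865 pairs (5.15%) on the same chromosome were linked, against 1073 of 138215 pairs (0.776%) on different chromosomes. Pairs of a member with a SNP heterozygous only in Pa, on different chromosomes, passed this LOD at 4.52% (6073 of 134474) on the allowed classes. The share was 0.565% (1116 of 197438) with carriers set against the other plants. Such pairs read separate meioses, so passing this LOD is not by itself linkage in Pe. A LOD score takes 1:1 for granted, and it is high for 2 SNPs that both have a rare class. With at least 20 plants in each class at both SNPs, a limit added after the calls had been seen, 8.86% and 0.682% of pairs were linked on the allowed classes.

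Linkage fell with distance. The mean r2 on the allowed classes was 0.298 for members 1 to 100 kb apart, 0.229 at 0.1 to 1 Mb, 0.0838 at 1 to 5 Mb, 0.0363 at 5 to 20 Mb and 0.0211 beyond 20 Mb, against 0.0202 between chromosomes. The median recombination fraction was 0.209 in the nearest bin and 0.420 between chromosomes. Up to 1 Mb the mean r2 was 0.237, with an SD between chromosomes of 0.0755 (442 pairs). Among the SNPs heterozygous only in Pa it was 0.213, with an SD of 0.101 (291 pairs). The difference between these means was smaller than either SD.

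Between a member and a SNP heterozygous only in Pa, the mean r2 up to 1 Mb was 0.0255, with an SD between chromosomes of 0.0180 (655 pairs), and it was 0.0186 between chromosomes. It did not decline steadily with distance, with 0.0173 at 1 to 100 kb, 0.0268 at 0.1 to 1 Mb and 0.0181 beyond 20 Mb. When carriers were set against the other plants, the mean r2 up to 1 Mb was 0.279 among members and 0.0149 between members and SNPs heterozygous only in Pa, of which 300 of 680 and 2 of 966 pairs were linked. SNPs up to 1 Mb apart on the reference therefore shared more of their calls when the same parent was heterozygous than when the other parent was. These pairs share their plants and many of their SNPs, so the values are a description. The part of imputation in this sharing of calls was not tested.

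**Figure D4:**
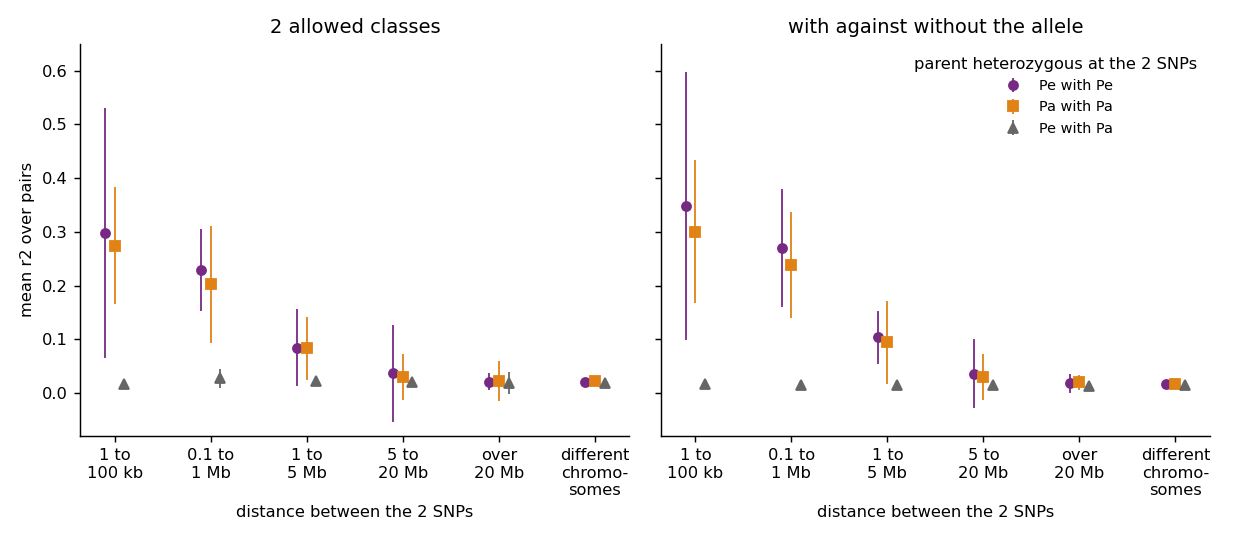
Mean r2 over pairs of SNPs (y axis) by the distance between them (x axis), for the 2 allowed classes (left) and for plants with against without the allele (right); bars show the SD between chromosomes. Pairs within Pe and within Pa decline with distance, whereas pairs of a Pe SNP with a Pa SNP stay between 0.0132 and 0.0268 at every distance.

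Fewer than 1 in 2 close pairs was linked, and this share followed the number of missing calls. With carriers set against the other plants, 300 of 680 pairs (44.1%) up to 1 Mb apart were linked. Where both members had N in at most 3 columns, 59 of 75 pairs (78.7%) were linked, with a mean r2 of 0.525. Where both had N in 10 to 18 columns, 27 of 139 pairs (19.4%) were linked, with a mean r2 of 0.163. The best partner of a member, that with the highest LOD score more than 1 kb away, was on the same chromosome for 52.8% of 470 members on the allowed classes and for 62.6% of 561 members with carriers set against the other plants. By the number of members per chromosome alone, 12.01% would have been so placed. The highest share on a chromosome with over 10 members in this set was 73.5% on chromosome 1, and the lowest was 26.7% on chromosome 18. Chromosome 1 held 147 of the 561 members and chromosome 18 held 15. The share by number alone is therefore larger on chromosome 1, and this order does not allow for it.

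On each of the 5 chromosomes with most members, the pair over 1 Mb apart with the highest LOD is given. Few recombinants follow from that choice. The intervals for these pairs, and for the chosen pairs on different chromosomes below, do not allow for it. On chromosome 1, S1_84937209 and S1_85957194, 1.02 Mb apart, had 4 recombinants in 85 plants (4.71%, exact 95% interval 1.30% to 11.6%; LOD 18.6). With carriers set against the other plants, all 24 other pairs of members between their neighborhoods of 2 Mb on either side were linked as well. On chromosome 8, S8_25335533 and S8_27384513 had 7 recombinants in 79 plants (8.86%; LOD 13.5) over 2.05 Mb. On chromosome 3, S3_48791235 and S3_50494023 had 11 in 87 (12.6%; LOD 11.8) over 1.70 Mb, and on chromosome 14, S14_14593721 and S14_15931381 had 11 in 86 (12.8%; LOD 11.6) over 1.34 Mb. The pair on chromosome 5 lay much farther apart. S5_10776122 and S5_23634288 had 9 recombinants in 84 plants (10.7%, exact 95% interval 5.02% to 19.4%; LOD 12.9) over 12.9 Mb. The support from other members was uneven. Between the neighborhoods of these pairs, 36 of 49 other pairs were linked on chromosome 3, 13 of 23 on chromosome 8, 9 of 30 on chromosome 14 and 12 of 79 on chromosome 5, where S5_10776122 itself was linked to 2 of 7 neighbors.

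Pairs with as few recombinants were found on different chromosomes. S7_28803393 and S15_2028226 had 0 recombinants in 82 plants (exact 95% interval 0% to 4.4%; LOD 24.7), the highest LOD of all such pairs. Of 7 other pairs between their neighborhoods of 2 Mb, 1 was linked with carriers set against the other plants, and S7_28803393 was not linked to its 1 neighbor. Farther along chromosome 7 than this neighborhood, S7_31739826 and S15_1680675 had 3 recombinants in 78 plants with carriers set against the other plants (LOD 17.96). In this reading S15_2028226 was the best partner on another chromosome for members over a longer stretch of chromosome 7. They were S7_20464295 (LOD 9.93), S7_23389016 (15.1), S7_25824904 (10.9), S7_31739826 (18.2), S7_32868051 (5.72) and S7_34749806 (7.78). Between them, S7_21346574, S7_23901642, S7_26396042 and S7_27252669 had such partners on chromosomes 1, 5 or 11. On the allowed classes, S8_7583097 and S12_14157940 had 3 recombinants in 82 plants (LOD 19.1), and S6_5702148 and S12_1324757 had 4 in 82 (LOD 17.7). S1_100394890 and S5_23508216 had 1 in 77 (LOD 20.9), but only 10 plants in the smallest class. S5_10776122 and S9_14147427 had 6 in 89 (6.74%, exact 95% interval 2.51% to 14.1%; LOD 17.2).

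Some of these SNPs segregated with another chromosome and not with their own neighbors. S15_20555643 was linked to 0 of 5 members within 2 Mb on chromosome 15, with carriers set against the other plants, but had 6 recombinants in 90 plants with S1_238607164 (LOD 17.5) and was linked to 7 members within 2 Mb of it. S1_238607164 in turn was linked to 6 of its 8 neighbors. S16_7977516 was linked to 0 of 4 neighbors and had 7 recombinants in 89 plants with S1_224231866 on the allowed classes (LOD 16.1). S5_21267525 was linked to 0 of 6 neighbors and had 3 recombinants in 84 plants with the same S1_224231866 (LOD 19.7). Of 409 members with at least 3 neighbors within 2 Mb, 115 (28.1%) were linked to none of them, and 14 of these had a LOD over 10 with a member on another chromosome. Among members with N in at most 3 columns, 18 of 130 (13.8%) were linked to no neighbor and 5 of these had such a partner. Among the 14 are S9_16214981 and S12_25065709, whose rare class raises the LOD. S5_23508216 (LOD 20.9) is also among them, with 16 of 83 plants in the smallest class of its pair. S8_23814360 (LOD 10.2) is another, and its partner S1_99693934 had the Pe-only allele in 7 of 75 progeny. Where these fragments lie in the genome of Pe was not tested.

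**Figure D5:**
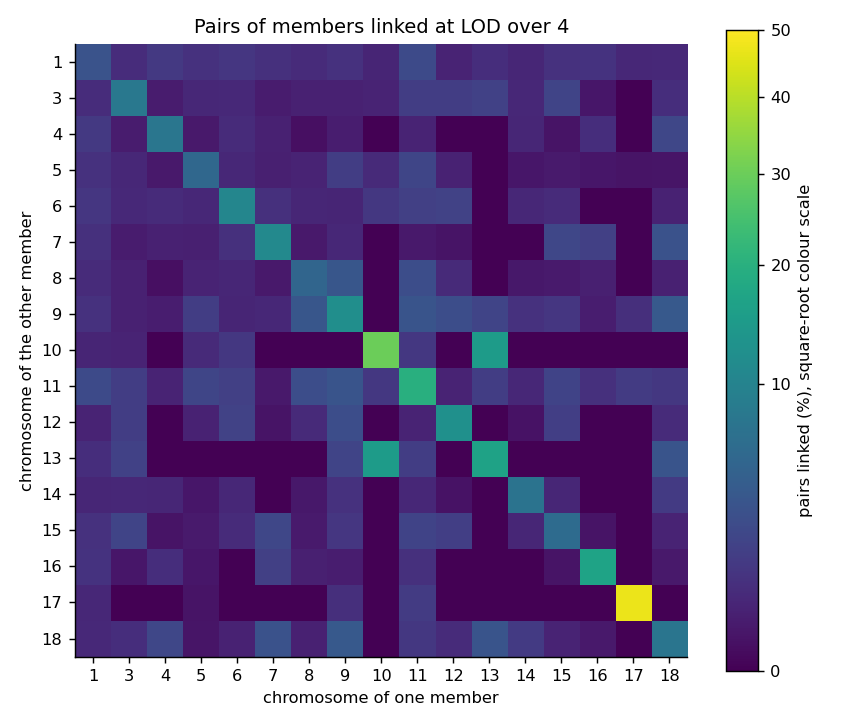
Share of pairs of members linked at LOD over 4 (%), with carriers set against the other plants, by the chromosomes of both members; chromosome 19, with a single member, is left out. The diagonal holds 3.32% on chromosome 1 to 47.2% on chromosome 17, and off the diagonal the highest share is 15.0% between chromosomes 10 and 13 (3 of 20 pairs).

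The share of linked pairs differed between chromosomes, whose members also lay at different distances from each other. With carriers set against the other plants, 17 of 36 pairs (47.2%) were linked on chromosome 17, where 1 set of 6 linked members spans 1.46 Mb, and 59 of 351 (16.8%) on chromosome 16, but 356 of 10731 (3.32%) on chromosome 1, whose members span 117177 to 257414695 bp. Even so, chromosome 1 held linked pairs very far apart. S1_117177 and S1_107696246, 107.6 Mb apart, had 2 recombinants in 84 plants (LOD 21.2), and neither was linked to a neighbor within 2 Mb, with 0 and 4 neighbors tested. Members joined by a LOD over 4 on a chromosome formed 64 sets that held 433 of the 561 members, the largest with 66 members on chromosome 5.

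Of the 10 SNPs that the study associated with color traits, 5 were members. S5_10776122 had 46 heterozygous, 44 homozygous and 0 disallowed progeny, and S9_14147427 had 40, 49 and 1. S5_45647571 had 34, 47 and 7. At S5_24984925 there were 9 heterozygous, 47 homozygous and 32 disallowed progeny, and at S5_43813578 there were 0, 39 and 38. On the allowed classes the last 2 departed from 1:1 (exact binomial test, adjusted p = 1.63e-06 and 8.79e-11), whereas with disallowed calls counted as carriers none of the 5 departed (the lowest adjusted p was 0.622 by the exact binomial test). All 5 thus had the Pe-only allele in 45.6% to 51.1% of progeny.

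By recombination in Pe, these 5 members fell into a group of 3 and a pair. The study associated the group of 3 with lip yellow color, S5_43813578 with petal magenta area and S5_45647571 with petal magenta color. All 5 were chosen by association with color traits in this same family, so the grouping is not independent of that choice. With carriers set against the other plants, S5_10776122 and S9_14147427 had 7 recombinants in 90 plants (7.78%; LOD 16.4), S5_24984925 and S9_14147427 had 15 in 88 (17.05%; LOD 9.04), and S5_10776122 and S5_24984925 had 17 in 88 (19.3%; LOD 7.73). S5_43813578 and S5_45647571 had 13 in 76 (17.1%; LOD 7.78). Between the group and the pair, 34 to 43 plants were recombinant and the highest LOD was 0.365. S9_14147427 was linked to 0 of 5 neighbors on chromosome 9, and its best partner on another chromosome was S5_23634288 (LOD 16.98). It was linked to 6 members within 2 Mb of S5_23634288. Near S5_10776122 few other members took part, with 2 of 47 other pairs linked between its neighborhood and that of S9_14147427.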

How the data were processed

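Leaf DNA of 90 F1 plants and both parents was genotyped by sequencing in 4 libraries. The authors mapped reads with Bowtie 2 in TASSEL at default settings and deposited 1 table of genotype letters merged over libraries. Per the labels of that table it was imputed by nearest neighbors and filtered at a minor allele frequency of 0.05. Which letters were imputed, the read depth and the build are unknown, so no limit from depth could be given. The number of columns of unknown identity used was 0.

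Each letter was turned into a class relative to the parents. Departures used exact binomial tests over all SNPs with at least 20 calls, chromosomes a sign-flip permutation test over plants, and pairs LOD scores with 1 member per 5 kb. The plants are 1 family. Permutation p-values measure only the spread between these plants, and exact binomial p-values only counting error against 1:1. Scripts were tested on a simulated cross. SNPs named are the associated ones, the 5 most extreme in each direction, the 3 with most disallowed calls and the best pairs; others, with the placement counts, were named after their values were seen. Of the plants, the 3 highest and 3 lowest in disallowed share were to be named, and 1 of them is not reported here. The members, lists and tests were chosen with earlier results of these data known. Alternatives changed the plants, the reading of classes, the limit on N, SNP density and thresholds. Tools were scipy 1.17.1 and pandas 2.3.3, with numpy 2.4.6 under Python 3.11.15.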

Additional observations from a re-analysis of the deposited data

How the results depend on the processing

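The number of members was 951, 547 with N in at most 10% of plants, 561 with 1 per 5 kb and 12765 with no limit on N. Members departing from 1:1 numbered 688 and were 133 (of 539 tested) in sparsely called progeny only, 349 with disallowed calls counted as carriers, 310 (of 547) with N in at most 10% of plants, 64 (of 201) with at most 5% disallowed calls, 413 (of 561) with 1 per 5 kb, 407 (of 672) with at least 60 allowed calls and, added after seeing the data, 37 (of 112) with no N. The median heterozygote share, 24.6%, was 41.6% counted as carriers, 34.3% with N in at most 10% of plants, 42.9% with at most 5% disallowed calls and 43.7% with no N. The disallowed share, 18.5%, was 15.4%, 2.46% and 6.84% under the last 3 of these limits. The chromosomes with a differing heterozygote share numbered 11, but 6 in sparsely called progeny, 5 counted as carriers and 3 (of 13 tested) with at most 5% disallowed calls.

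Linked pairs on the same chromosome numbered 1076 and those on different chromosomes 3548. They were 482 and 1511 in well-called progeny (6.31% and 2.61% of pairs), 389 and 390 with N in at most 10% of plants (8.39% and 1.27%), 107 and 118 with at most 5% disallowed calls (10.6% and 1.49%), 493 and 1181 at LOD over 6 (4.27% and 1.36%) and 204 and 130 with at least 20 plants in each class. With carriers set against the other plants they were 971 and 1073 (5.15% and 0.776%). When 20 plants in each class were also required, they were 801 and 501 (5.98% and 0.508%). Against the allowed classes (9.32% and 4.09%), both linked shares fell by over 1.5 times in each of these carrier settings. An adjusted exact binomial p under 0.05 in place of the LOD gave 2976 same-chromosome pairs (25.8%). In each of these settings that gave both, the linked share was higher on the same chromosome. The mean r2 up to 1 Mb, 0.237, was 0.370 with N in at most 10% of plants and 0.431 with at most 5% disallowed calls. The value with SNPs heterozygous only in Pa and the share of best partners on the same chromosome moved by less than their SD between chromosomes in every setting run. Why the counts moved was not tested; fewer members and plants enter several settings. Pairs could not be counted in the 30 sparsely called progeny, since at least 40 plants were required. No paired analysis was possible because the replicate numbers in the labels are plates of libraries, which the plant columns merge, so a block by these numbers could not be fitted. The tests of chromosomes and of both kinds of SNP compared shares within each plant and do not use these numbers. All depth limits stay unknown.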
